A study of Homo sapiens with 12 samples.

Results

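The matrix metalloproteinases (MMPs) and their tissue inhibitors (TIMPs) were followed in 2 triple-negative breast cancer lines after knockdown of PHF19. Their members were taken by name, though with earlier results of these data known. They are MMP1, MMP2, MMP3, MMP9, MMP13, MMP14, MMP15, TIMP1, TIMP2 and TIMP3, 10 of the 29972 gene rows in each of the deposited tables. PHF19 is a Polycomb-like protein that associates with the repressive complex PRC2. The lines were MDA-MB-436 and BoM-1833, a bone-seeking line obtained by passage through mice. Each is a single cell line grown in culture, so bone-seeking and any other difference between the lines cannot be told apart. In both lines the control group (siNT) received the ON-TARGETplus pool of non-targeting siRNAs from Dharmacon, and the treated group (siPHF19) received 2 Silencer Select siRNAs against PHF19 from ThermoFisher Scientific, mixed in equal parts. All groups were reverse transfected with Lipofectamine RNAiMAX at 5 nM siRNA in total and harvested at 72 h, so treatment and siRNA supplier cannot be told apart. Each of the 4 groups held 3 libraries. The labels do not say whether the 3 libraries of a group came from separate cultures, so the p-values measure the spread between these libraries, which may be technical.

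MMPs are zinc-dependent proteases that cut collagen, gelatin, laminin and other proteins of the extracellular matrix. Most are secreted as inactive precursors and are activated by removal of a propeptide, whereas the membrane-type MMPs sit at the cell surface, where MMP14 together with TIMP2 activates the precursor of MMP2. TIMPs bind active MMPs tightly and block them. In breast cancer metastasis to bone, MMP1 is one of the genes known to mark bone-seeking cells.

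Libraries held 15.2 to 24.0 M reads (M, mega) in genes for MDA-MB-436 and 13.7 to 21.3 M for BoM-1833. The normalized count of PHF19, a read count divided by the size factor of its library, fell from 3353 ± 411 to 327 ± 12.8 in cells of MDA-MB-436, while in those of BoM-1833 it fell from 1688 ± 20.9 to 185 ± 14.2 (SD, n = 3 in each group). Of the markers of these lines, VIM was abundant in all 12 libraries, PGR was at 0 in MDA-MB-436, and ESR1 stayed below 4 normalized counts in every library, but ERBB2, the third receptor of the marker list, was present at 1056 ± 110.1 (MDA-MB-436) and 1041 ± 32.0 (BoM-1833) in siNT (SD, n = 3). Control replicate 1 stood apart in both lines. Its chi-square per degree of freedom against the other controls was 11.9 to 24.1, against 2.29 to 7.84 for all other pairs of replicates. Member results that depend on a single library are given with and without it.

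Per length of exon, the MMPs with the highest levels among the 10 members were MMP14 and MMP1 in BoM-1833 and MMP2 and MMP15 in MDA-MB-436. Levels are given as reads per kilobase of exon and per M reads (RPKM), with the exons of the annotated transcripts of a gene merged. Orders between genes depend on these lengths. Since the tables of the lines were normalized separately, levels were not tested between lines. In siNT cells of BoM-1833 the order was led by MMP14, the main membrane-type collagenase, at 274 ± 17.8 RPKM, and by TIMP3, the inhibitor that binds to the matrix, at 260.0 ± 14.3 (SD, n = 3). These lay within their spread of each other. TIMP2 followed at 229 ± 8.95, then MMP1, the interstitial collagenase, at 186 ± 7.65, and TIMP1 at 92.5 ± 7.13 RPKM (SD, n = 3). All other members were low in that line, at 1.54 ± 0.252 RPKM for MMP15, 1.04 ± 0.173 for MMP3, 0.155 ± 0.114 for MMP13, 0.105 ± 0.0509 for MMP9 and 0.0105 ± 0.00998 for MMP2 (SD, n = 3).

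In siNT cells of MDA-MB-436 the inhibitors came first. TIMP1 stood at 78.0 ± 7.29 and TIMP2 at 60.7 ± 3.58 RPKM (SD, n = 3). The highest MMP among the members was MMP2, a gelatinase, at 4.83 ± 0.470 RPKM, followed by MMP15, another membrane-type MMP, at 2.71 ± 0.122 (SD, n = 3). MMP1 (0.690 ± 0.128) and TIMP3 (0.638 ± 0.0917 RPKM) did not differ beyond their spread, and neither did MMP3 (0.378 ± 0.0401) and MMP9 (0.322 ± 0.0608 RPKM). MMP14 was at 0.191 ± 0.0383 and MMP13 at 0.0578 ± 0.0546 RPKM (SD, n = 3). The level in BoM-1833 was 1437 times that in MDA-MB-436 for MMP14, 408 times for TIMP3 and 269 times for MMP1, but 3.77 times for TIMP2 and 1.19 times for TIMP1. The abundant members of one line were thus in part near the floor in the other, and a change in either line is read against its own starting level.

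**Figure D1:**
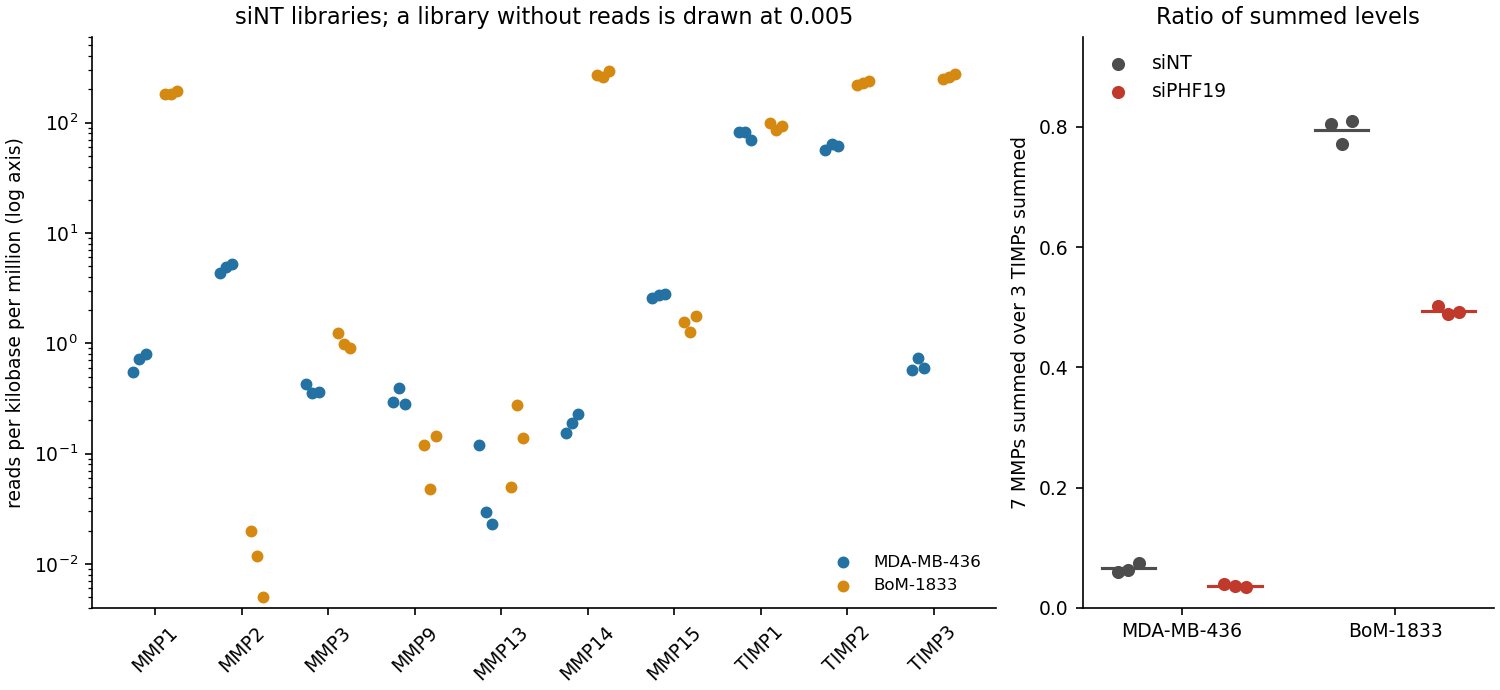
Left, level of each member in the siNT libraries of both lines, in RPKM on a log axis (points: libraries; 1 library without reads is drawn at the lower edge). Right, summed level of the 7 MMPs over that of the 3 TIMPs in each library of each group (line: mean); the ratio lies lower after siPHF19 in every library of both lines, at 0.488 to 0.502 against 0.772 to 0.8097 in BoM-1833.

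The promoters of MMP14 and TIMP3 are shown because these members led in BoM-1833 and lay under 1 RPKM in MDA-MB-436. They are 300 bases of RefSeq sequence (GRCh38.p14, plus strand in both cases, 5′ to 3′), from 250 bases before to 50 after the start of the transcript, at chr14:22836335-22836634 for MMP14 and chr22:32801455-32801754 for TIMP3. Capitals mark the GC box GGGCGG on either strand (its reverse complement reads CCGCCC).

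MMP14: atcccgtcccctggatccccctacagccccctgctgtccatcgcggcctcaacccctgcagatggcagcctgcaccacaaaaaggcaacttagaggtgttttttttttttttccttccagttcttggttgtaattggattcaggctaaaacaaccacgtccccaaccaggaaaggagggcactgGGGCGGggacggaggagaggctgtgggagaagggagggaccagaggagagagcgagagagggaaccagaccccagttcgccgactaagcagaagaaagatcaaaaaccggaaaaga

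TIMP3: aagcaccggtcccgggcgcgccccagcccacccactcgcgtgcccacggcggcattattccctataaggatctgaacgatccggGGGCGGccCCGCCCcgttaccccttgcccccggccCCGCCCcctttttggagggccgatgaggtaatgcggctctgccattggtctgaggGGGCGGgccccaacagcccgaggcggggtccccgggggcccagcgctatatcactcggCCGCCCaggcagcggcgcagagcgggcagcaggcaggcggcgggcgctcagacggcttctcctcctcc

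The window of TIMP3 was 72.7% G and C with 31 CpG and 5 GC boxes, and that of MMP14 was 55.0% G and C with 10 CpG and 1 GC box, against a median of 58.3% and 14 CpG over 27305 promoters of the same length. RefSeq windows were also at hand for MMP15 (75.3% G and C, 39 CpG, 5 GC boxes) and TIMP1 (65.0%, 16 CpG, 2 GC boxes), so that 4 of the 10 members were matched. The GC box occurred in 44.6% of all promoters. None of the 4 windows held TGANTCA, a form of the AP-1 site found in 7.76% of all promoters, or TATAAA, the core of the TATA box (11.95% of all). The PEA3 motif AGGAAG, found in 33.7% of all promoters, occurred 1 time in TIMP1 and in none of the other 3, with both strands searched for every motif. Motif matches are a description of these windows only.

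After siPHF19, the called changes among the members were all decreases of proteases. In MDA-MB-436, MMP1, MMP2 and MMP9 fell to 42.0%, 38.8% and 20.0% of the siNT mean. In BoM-1833, MMP1 fell to 40.5% and MMP14 to 74.6%. By the authors' deposited table (DESeq2 Wald test, adjusted p under 0.05 over all genes tested) 3 of the 9 members tested in MDA-MB-436 were called, all lower, where 22.1% of all tested genes were called, 11.5% lower and 10.5% higher. In BoM-1833 it calls 2 of the 7 tested members, both lower, against 10.9% called, 5.72% lower and 5.21% higher, among all tested genes. The untested members, MMP13 in both lines and MMP2 and MMP9 in BoM-1833, have too few reads to carry an adjusted p.

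The median log2 fold change over the tested members was -0.15 for MDA-MB-436 and -0.09 for BoM-1833, beside -0.00 over all tested genes in each line. The groups of libraries did not overlap for 6 of the 9 tested members in MDA-MB-436 (4 lower, 2 higher), where 42.2% of all tested genes had groups that did not overlap. For BoM-1833 this held for 2 of 7 members, both lower, beside 31.0% of all tested genes. A called decrease with a log2 fold change of -1 or lower was found for 1.23% of tested genes in MDA-MB-436, among them MMP1, MMP2 and MMP9, and for 0.302% in BoM-1833, among them MMP1. In these bulk samples, fewer cells of a type and less RNA per cell cannot be told apart.

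**Figure D2:**
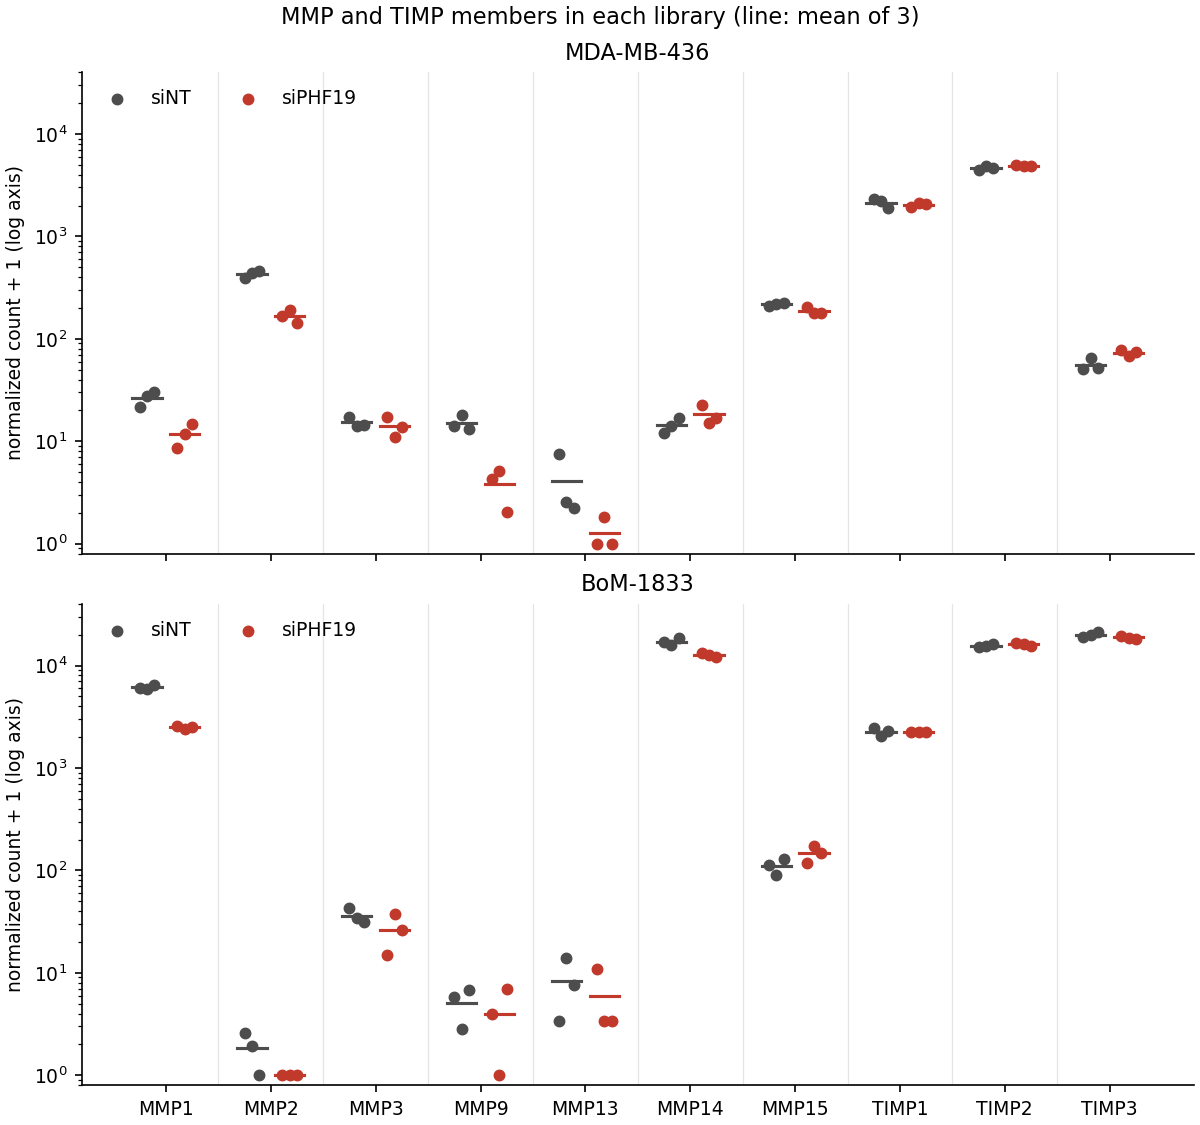
Normalized count plus 1 of each of the 10 members in all 12 libraries, on a log axis, with MDA-MB-436 above and BoM-1833 below (points: libraries; line: mean of 3). MMP1 is lower in every siPHF19 library of both lines, at levels of 7.63 to 29.4 normalized counts for MDA-MB-436 and 2404 to 6450 for BoM-1833, while the TIMP1 groups overlap in both.

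MMP1 encodes the collagenase that makes the first cut in fibrillar collagen (chromosome 11, 102789920 to 102798160, minus strand, GRCh38). In BoM-1833 the siNT libraries held 6025, 5911 and 6450 normalized counts of it (replicates 1, 2 and 3, the order used throughout) and the siPHF19 libraries 2561, 2404 and 2490. The groups were far apart, with the highest treated library under every control library, and replicates of a group lay close together. The mean went from 6129 ± 284 to 2485 ± 78.6 (SD, n = 3), and the log2 fold change for BoM-1833 in the authors' deposited table is -1.30 (adjusted p 4.48e-93, SE 0.06). Fits without 1 library gave -1.33 to -1.27, and without control replicate 1 the value was -1.31. On the RPKM scale the level of MMP1 moved from above that of TIMP1 (186 against 92.5) to below it (76.3 ± 2.75 against 92.8 ± 0.370, SD, n = 3).

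In MDA-MB-436 MMP1 was scarce. Its normalized count was 20.7, 26.4 and 29.4 in siNT and 7.63, 10.8 and 13.7 in siPHF19, which rest on 19, 34 and 24 reads and on 7, 13 and 13 reads. All treated libraries were below all controls. The mean went from 25.5 ± 4.37 to 10.7 ± 3.05 (SD, n = 3), and the value in the authors' deposited table is -1.25 (adjusted p 0.0412, SE 0.47). In each of the 6 DESeq2 fits without 1 library, which gave log2 fold changes of -1.45 to -1.06, this call was lost (adjusted p 0.0755 without siNT replicate 1, 0.209 without siNT replicate 2, 0.150 without siNT replicate 3, 0.234 without siPHF19 replicate 1, 0.182 without siPHF19 replicate 2 and 0.0832 without siPHF19 replicate 3). It was also lost with the DESeq2 filter on low counts switched off (0.0571) and in DESeq2 with a replicate block (0.202). The call was made by edgeR (0.0155) and limma (0.0211). For MMP1 in either line, log2 normalized counts compared by exact permutation (2-sided) had p = 0.1, and with 3 libraries on each side no smaller p is possible.

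At very different levels, the estimates for MMP1 lay close together. The log2 fold change of BoM-1833 minus that of MDA-MB-436 was -0.05 (SE 0.48, 95% interval -0.99 to 0.88, adjusted p 0.976, z test), a wide interval given the few reads in MDA-MB-436. On the opposite strand the pseudogene WTAPP1 overlaps exons of MMP1. It had 0 reads in the siNT libraries of both lines and at most 3 reads in a siPHF19 library, so WTAPP1 was at or near 0 throughout.

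MMP1, MMP3 and MMP13 lie in a cluster of 9 MMP genes on chromosome 11 (102520508 to 102955734, 435 kb), all on the minus strand. In BoM-1833 nearly all siNT reads of the cluster, 99.0%, belonged to MMP1 (20761 reads), with 121 for MMP3, 69 for MMP10, 24 for MMP13, 1 for MMP7 and 0 for the rest. In MDA-MB-436 MMP1 took 49.4% (77 reads), beside 43 for MMP3, 21 for MMP7, 9 for MMP13, 5 for MMP10 and 1 for MMP20. MMP7, MMP10, MMP8, MMP12, MMP20 and MMP27 are the other members of the cluster.

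MMP3, or stromelysin-1, cuts proteoglycans and can activate MMP1 (chromosome 11, 102835801 to 102843803, minus strand). In BoM-1833 its normalized count was 42.1, 33.2 and 30.5 in siNT and 13.9, 36.6 and 25.2 in siPHF19, so the groups overlapped through treated replicate 2. The authors' deposited table gives -0.50 (95% interval -1.29 to 0.29, adjusted p 0.545) there and, for MDA-MB-436, -0.15 (95% interval -1.17 to 0.86, adjusted p 0.877). In the latter the mean was 14.3 ± 1.77 in siNT and 13.0 ± 3.22 in siPHF19 (SD, n = 3). MMP3 was thus not called in either line, with intervals that reach to more than 1 log2 unit below 0.

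MMP13, a collagenase made by cartilage and bone cells (chromosome 11, 102942995 to 102955734, minus strand), had few reads throughout and no test. Read counts were 6, 2 and 1 in siNT and 0, 1 and 0 in siPHF19 of MDA-MB-436, where the highest treated library and the lowest control library had 1 read each. In BoM-1833 they were 3, 14 and 7 against 10, 2 and 2, with overlapping groups.

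The gelatinases, which degrade denatured collagen and the collagen of basement membranes, were measurable in MDA-MB-436. MMP2 (chromosome 16, 55389700 to 55506691, plus strand) had normalized counts of 390.8, 436 and 459.8 in siNT and 167, 191 and 142 in siPHF19. All treated libraries lay well below all controls. The mean went from 429 ± 35.1 to 167 ± 24.9 (SD, n = 3), and the authors' deposited table gives -1.36 (SE 0.15, 95% interval -1.65 to -1.07, adjusted p 1.91e-18). Without siNT replicate 1 the value was -1.42, and all fits without 1 library lay between -1.48 and -1.26. In RPKM the level of MMP2, the highest among the 7 MMPs of the member list in this line, moved from 4.83 to 1.90 ± 0.287 (SD, n = 3), below that of MMP15 (2.37 ± 0.214).

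BoM-1833 had almost no MMP2 reads, with 2, 1 and 0 in siNT and 0 in each siPHF19 library, at or under the 3 reads taken as the floor. No fold change is given for it.

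MMP9 (chromosome 20, 46008908 to 46016561, plus strand) was scarce in MDA-MB-436, with normalized counts of 13.1, 17.1 and 12.2 in siNT and 3.27, 4.14 and 1.06 in siPHF19, from 12, 22 and 10 reads and 3, 5 and 1 reads. The groups did not overlap. The mean went from 14.1 ± 2.57 to 2.82 ± 1.59 (SD, n = 3), with -2.30 (SE 0.76, 95% interval -3.79 to -0.82, adjusted p 0.0148) in the authors' deposited table. The call was also made by edgeR (adjusted p 0.00642). In every fit without 1 library DESeq2 gave MMP9 no adjusted p because of its low count. The value then ranged from -2.72 without siPHF19 replicate 2 to -1.93 without siPHF19 replicate 3, with unadjusted p of 0.00783 to 0.0332. In BoM-1833 MMP9 had 6, 2 and 6 reads in siNT and 3, 0 and 5 in siPHF19, with overlapping groups and no test. The antisense gene SLC12A5-AS1 overlaps exons of MMP9. Exons of TIMP2 are overlapped by AC022966.1 on the opposite strand, and exons of MMP2 by AC007336.3 on the same strand. Whether strand was used in counting is not given in the sources used here.

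The membrane-type MMPs act at the cell surface and at invadopodia, the protrusions with which cells degrade matrix. MMP14 (chromosome 14, 22836557 to 22849027, plus strand) had normalized counts of 17048, 15933 and 18419.6 in siNT of BoM-1833 and 13394, 12715 and 12219 in siPHF19. Its treated libraries were all below its controls. The mean went from 17133 ± 1246 to 12776 ± 590 (SD, n = 3), which the authors' deposited table lists as -0.42 (adjusted p 4.93e-09, SE 0.06). Fits without 1 library gave -0.47 to -0.37, and -0.43 without siNT replicate 1. Although MMP14 lost a smaller share of its transcripts than MMP1, its RPKM went from 274 to 207 ± 9.93 (SD, n = 3), and after siPHF19 TIMP3 (247 ± 7.87) and TIMP2 (239 ± 8.30) both stood above it.

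In MDA-MB-436 MMP14 was near the floor, at 10.9, 13.2 and 15.9 normalized counts in siNT and 21.8, 14.1 and 15.8 in siPHF19, with overlapping groups. The authors' deposited table gives 0.37 (95% interval -0.60 to 1.34, adjusted p 0.657), an interval that includes the value of BoM-1833. The difference between lines was -0.79 (95% interval -1.77 to 0.19, adjusted p 0.460, z test).

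MMP15, or MT2-MMP (chromosome 16, 58025566 to 58046901, plus strand), had normalized counts of 209.6, 215 and 223 in siNT and 205, 176 and 176 in siPHF19 of MDA-MB-436. The treated libraries were lower without overlap, but the difference of -0.22 (95% interval -0.51 to 0.07, adjusted p 0.313) in the authors' deposited table was not called. In BoM-1833 the values were 113, 89.5 and 127 against 116, 173 and 147. The groups overlapped, and the authors' deposited table gives 0.40 (95% interval -0.00 to 0.81, adjusted p 0.239). The signs of MMP15 were opposite, with a difference between lines of 0.62 (95% interval 0.12 to 1.12, unadjusted p 0.0148, adjusted p 0.163, z test). The z test was not repeated without single libraries. In DESeq2 fits of both lines together (interaction of line and treatment) without 1 library, MMP15 passed only without siPHF19 replicate 1 of BoM-1833 (0.76, adjusted p 0.0342).

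The inhibitors gave no call. None of the 3 TIMPs was called in either line by DESeq2, none had an unadjusted p under 0.05, and edgeR and limma called none. TIMP1 (chromosome X, 47582313 to 47586789, plus strand), which inhibits most secreted MMPs, had normalized counts of 2297, 2231 and 1886 in siNT and 1929.7, 2112 and 2057 in siPHF19 of MDA-MB-436, with overlapping groups. In BoM-1833 it had 2443, 2051 and 2288 against 2231, 2243 and 2246, and the treated libraries lay within the controls. The authors' deposited table gives -0.07 (95% interval -0.25 to 0.11, adjusted p 0.627) and -0.01 (95% interval -0.16 to 0.13, adjusted p 0.956).

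TIMP2 (chromosome 17, 78852977 to 78925387, minus strand), which both inhibits MMP2 and takes part in its activation, had 4432, 4844 and 4653 normalized counts in siNT and 4982, 4855 and 4861 in siPHF19 of MDA-MB-436. The treated libraries were slightly higher without overlap. The authors' deposited table gives 0.08 (95% interval -0.05 to 0.20, adjusted p 0.429). In BoM-1833 the normalized counts were 15161, 15426 and 16344 against 16613, 16256 and 15534, with overlapping groups. The value for BoM-1833 in the authors' deposited table is 0.04 (95% interval -0.06 to 0.15, adjusted p 0.737).

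TIMP3 (chromosome 22, 32801701 to 32863043, plus strand) lies inside SYN3 on the opposite strand, with no shared exon. In BoM-1833 its normalized count was 19112, 19727 and 21275 in siNT and 19388, 18751 and 18261 in siPHF19. Treated replicate 1 lay within the controls. The authors' deposited table gives -0.09 (95% interval -0.21 to 0.02, adjusted p 0.383), and a call was made only without siNT replicate 1 (-0.12, adjusted p 0.0293). In MDA-MB-436 TIMP3 had 50.2, 63.6 and 51.4 against 76.3, 67.1 and 72.9 normalized counts, higher without overlap. The authors' deposited table gives 0.38 (95% interval -0.11 to 0.86, adjusted p 0.300) there. The difference between lines was -0.47 (95% interval -0.97 to 0.03, adjusted p 0.359, z test). In the DESeq2 interaction fits without 1 library, TIMP3 passed only without siNT replicate 1 of BoM-1833 (-0.48, adjusted p 0.0435).

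Summed over the transcripts of the members, the level of the 7 MMPs relative to the 3 TIMPs was lower after siPHF19 in both lines, but over all 24 MMP genes and 4 TIMPs the groups overlapped in MDA-MB-436. In BoM-1833 the ratio of summed RPKM was 0.804, 0.772 and 0.8097 in siNT and 0.502, 0.488 and 0.492 in siPHF19. In MDA-MB-436 it was 0.0603, 0.0637 and 0.0740 against 0.0401, 0.0370 and 0.0341. Groups did not overlap in either line, and the spread within a group was small beside the gap. The TIMP sum was 582 ± 21.6 in siNT and 579 ± 15.8 in siPHF19 of BoM-1833 and 139 ± 7.57 and 141 ± 2.42 RPKM in MDA-MB-436 (SD, n = 3), whereas the MMP sum went from 463 ± 25.3 to 286 ± 11.2 and from 9.17 ± 0.675 to 5.24 ± 0.378 RPKM (SD, n = 3). With the other 17 MMP genes and TIMP4 added, a sum chosen after the data had been seen, the ratio was 0.774 to 0.814 in siNT and 0.498 to 0.512 in siPHF19 of BoM-1833. In MDA-MB-436 it was 0.120 to 0.158 against 0.108 to 0.122, and the MMP sum was 17.5, 20.8 and 21.7 RPKM against 17.4, 16.2 and 15.6. Of the genes added there, MMP16 stood at 3.66, MMP11 at 2.58, MMP17 at 2.30 and MMP19 at 1.35 RPKM in siNT. MMP1 and MMP14 make up nearly the whole MMP sum of BoM-1833, and MMP2 and MMP15 most of the sum over the members in MDA-MB-436. The ratio was computed after the single values were known and was not tested, and it counts transcripts, not active protein.

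**Figure D3:**
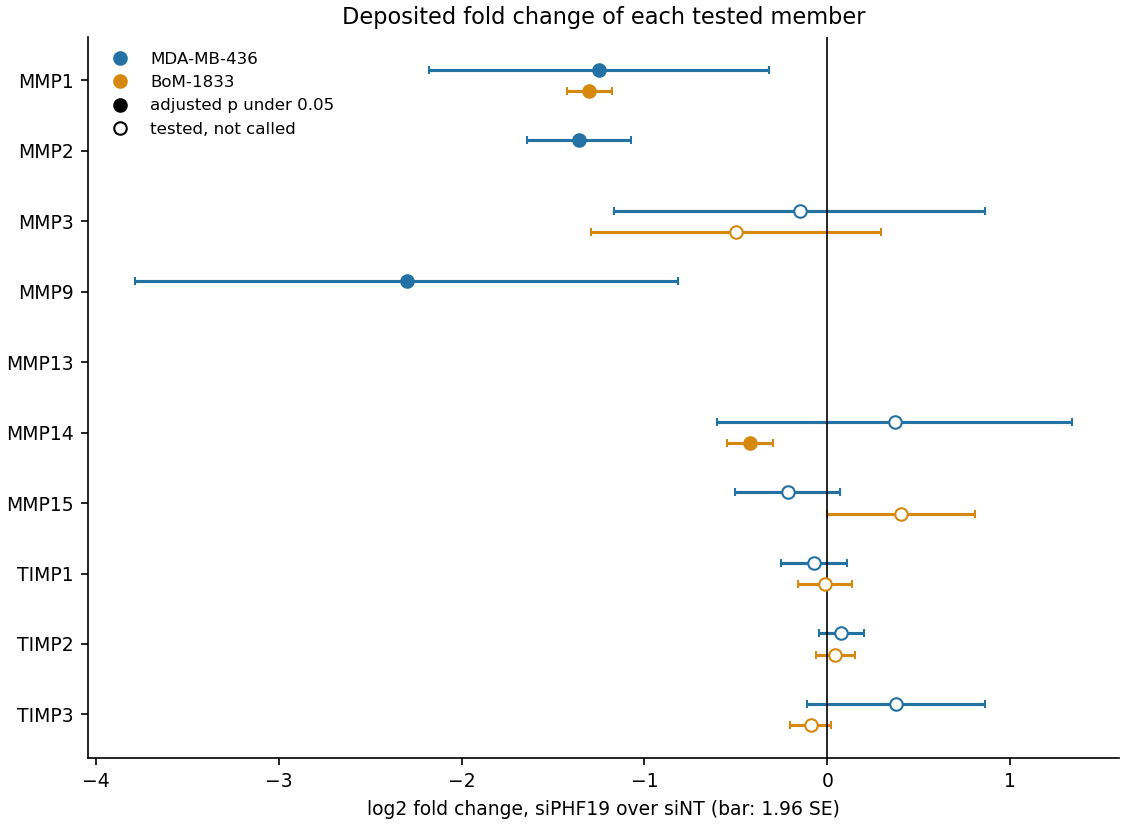
Log2 fold change of siPHF19 over siNT in the authors' deposited tables for each tested member in MDA-MB-436 (blue) and BoM-1833 (orange); bars are 95% intervals, and filled points have an adjusted p under 0.05. MMP1 has nearly the same value in both lines (-1.25 and -1.30) with a much wider bar in MDA-MB-436, and the bars of all 3 TIMPs include 0.

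No member was found to differ between the lines in its response. The z test of the difference in log2 fold change called 0 of the 7 members tested in both lines, beside 4.89% of all 12290 genes tested in both. At an unadjusted p under 0.05 it gave 1 member, MMP15, and the interaction tests of DESeq2 and edgeR on recovered reads also called 0. MMP2 and MMP9, which were called in MDA-MB-436 and had almost no reads in BoM-1833, were outside the z test. The edgeR interaction gave an adjusted p of 0.529 for MMP2 and 0.349 for MMP9, and that of DESeq2 0.856 for MMP2 and none for MMP9, where the siNT libraries of BoM-1833 held 3 and 14 reads.

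Other MMP genes and inhibitors were read from lists that hold the rest of these families. The counts of this and the following lists stand beside 22.1% (MDA-MB-436) and 10.9% (BoM-1833) of all tested genes. Of 17 further MMP genes, 6 were tested in MDA-MB-436, with 0 higher and 1 lower, and 4 in BoM-1833, with 0 higher and 0 lower (1 at an unadjusted p under 0.05, MMP11). The medians of their log2 fold changes were 0.26 and -0.03. MMP17, a membrane-type MMP anchored by glycolipid, had 110.2, 112 and 110.1 normalized counts in siNT and 63.2, 52.2 and 45.4 in siPHF19 of MDA-MB-436. The groups were well apart, with a value of -1.05 (adjusted p 5.45e-05, SE 0.23) in the authors' deposited table. In BoM-1833 MMP17 had 1 read in each group.

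Of 6 further inhibitors, 4 were tested in MDA-MB-436 (0 higher, 1 lower, median 0.02) and 6 in BoM-1833 (0 higher, 1 lower, median -0.01). TIMP4, the remaining TIMP, had normalized counts of 180.1, 205 and 168 in siNT and 91.6, 131 and 98.2 in siPHF19 of MDA-MB-436, without overlap. The authors' deposited table gives -0.78 (adjusted p 0.000566, SE 0.19), against -0.09 (adjusted p 0.847) in BoM-1833, with a difference between lines that was not called (0.69, adjusted p 0.0984, z test). SPOCK1, which encodes testican, a proteoglycan that can inhibit MT-MMPs, was lower in BoM-1833 (-0.39, adjusted p 0.0185 in the authors' deposited table). Its call was lost without siNT replicate 2 (adjusted p 0.0680), siNT replicate 3 (0.197), siPHF19 replicate 1 (0.116), siPHF19 replicate 2 (0.149) and siPHF19 replicate 3 (0.0625). That call was also lost in 1 of the 8 alternatives that kept all libraries. In MDA-MB-436 SPOCK1 was called only without siNT replicate 3 (0.30, adjusted p 0.0164).

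Genes for the activation, docking and uptake of MMPs went both ways. Of 14 genes, 11 were tested in MDA-MB-436 (2 higher, 5 lower, 63.6% called, median -0.00) and 12 in BoM-1833 (1 higher, 3 lower, 33.3% called, median 0.03). All 3 genes of the plasminogen activator system in the list, whose product plasmin cleaves MMP precursors, were lower in both lines. PLAUR, the urokinase receptor, has values of -0.56 (adjusted p 3.28e-06, MDA-MB-436) and -0.60 (adjusted p 6.49e-14, BoM-1833) by the authors' deposited table. PLAU, or urokinase, has -0.34 (adjusted p 1.59e-06) and -0.25 (adjusted p 0.00468), and PLAT, the tissue activator, -0.30 (adjusted p 0.0110) and -0.34 (adjusted p 1.48e-07) in the authors' deposited table. The call of PLAU in BoM-1833 was lost without siPHF19 replicate 1 (adjusted p 0.0679) and without siPHF19 replicate 3 (0.0889). That of PLAT in MDA-MB-436 was lost without siNT replicate 2 (0.139), siPHF19 replicate 1 (0.0593), siPHF19 replicate 2 (0.0731) and siPHF19 replicate 3 (0.153). Both of these calls were also lost in 2 of the 8 alternatives that kept all libraries.

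Transcription factors known to act on MMP promoters, of the AP-1, ETS and other families, numbered 19 and were all tested. In each line 1 was higher and 5 were lower, and these were the same genes, 31.6% of the list in either line beside 22.1% and 10.9% of all tested genes. The medians were -0.02 for MDA-MB-436 and 0.02 for BoM-1833. The AP-1 subunits FOSL1 (-0.31 and -0.41) and JUN (-0.33 and -0.29), the ETS factors ETS1 (-0.36 and -0.33) and ETV5 (-0.30 and -0.28) and the ternary complex factor ELK3 (-1.93 and -0.61) were lower in MDA-MB-436 and BoM-1833, and STAT3 was higher (0.33 and 0.31), all in the authors' deposited table. For ELK3 the mean of MDA-MB-436 went from 1519.6 ± 95.4 to 399 ± 38.7 normalized counts and that of BoM-1833 from 5334 ± 260.1 to 3496 ± 51.9 (SD, n = 3). Adjusted p-values were 0.00304 or lower for all 12 of these changes. The call of ETV5 was lost in MDA-MB-436 without siNT replicate 2 (adjusted p 0.0736), siPHF19 replicate 2 (0.0853) and siPHF19 replicate 3 (0.0851), and in BoM-1833 without siPHF19 replicate 1 (0.0723). In each line it was also lost in 1 of the 8 alternatives that kept all libraries. No binding was measured.

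Of the 28 genes of the related ADAM and ADAMTS proteases, 19 were tested in MDA-MB-436 (2 higher, 2 lower, 21.1% called, median 0.04) and 15 in BoM-1833 (1 higher, 2 lower, 20.0% called, median -0.04). ADAMTS6, a secreted protease of the matrix, was lower in both, at -1.09 (adjusted p 1.09e-12) and -1.03 (adjusted p 5.95e-05) in the authors' deposited table. ADAM12 in the authors' deposited table was lower for MDA-MB-436 (-0.87, adjusted p 1.42e-08), and ADAMTS15, an aggrecan-cleaving protease, was higher for BoM-1833 (0.61, adjusted p 3.93e-08).

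Cytokines and growth factors known to induce MMP1 and related genes went both ways, with the interleukin-1 genes lower in both lines. Those called higher were IL6 and EGF for MDA-MB-436 and TGFB1 and AREG for BoM-1833. Of 13 ligands, 11 were tested in MDA-MB-436 (2 higher, 5 lower, 63.6% called, median -0.11) and 9 in BoM-1833 (2 higher, 3 lower, 55.6% called, median 0.08). IL1B, which encodes interleukin-1 beta, had 3505, 3629 and 3819 normalized counts in siNT and 1013, 1173 and 919 in siPHF19 of MDA-MB-436, and 125, 129 and 144 against 65.6, 56.6 and 40.8 in BoM-1833. Its groups did not overlap in either line, and the authors' deposited table gives -1.82 (adjusted p 1.93e-77) and -1.28 (adjusted p 1.79e-06). IL1A has -0.56 (adjusted p 5.16e-14) and -1.71 (adjusted p 0.000112) in the authors' deposited table. IL11, a cytokine also named among bone metastasis genes, was lower for MDA-MB-436 (-1.31, adjusted p 4.50e-17), and for BoM-1833 HBEGF was lower (-0.72, adjusted p 7.55e-16) and TGFB1 higher (0.37, adjusted p 2.24e-07) in the authors' deposited table.

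All 10 genes of the invadopodia list were tested in both lines, with 3 higher and 2 lower in MDA-MB-436 (median -0.13) and 0 higher and 2 lower in BoM-1833 (median -0.03). FSCN1, which encodes the actin bundler fascin, was lower in both lines. The authors' deposited table gives -1.14 (adjusted p 6.90e-64) for MDA-MB-436 and -0.23 (adjusted p 0.00693) for BoM-1833. The latter call was lost without siNT replicate 3 (adjusted p 0.0564), siPHF19 replicate 2 (0.0757) and siPHF19 replicate 3 (0.137), and in 2 of the 8 alternatives that kept all libraries. SH3PXD2A, which encodes the scaffold TKS5, was higher in MDA-MB-436 (0.85, adjusted p 1.65e-14 in the authors' deposited table) and lower in BoM-1833 only without siNT replicate 1 (-0.30, adjusted p 0.000266). MYO10, an unconventional myosin, was lower in BoM-1833 (-0.33, adjusted p 0.00112 in the authors' deposited table), a call lost without siPHF19 replicate 2 (0.0512).

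**Figure D4:**
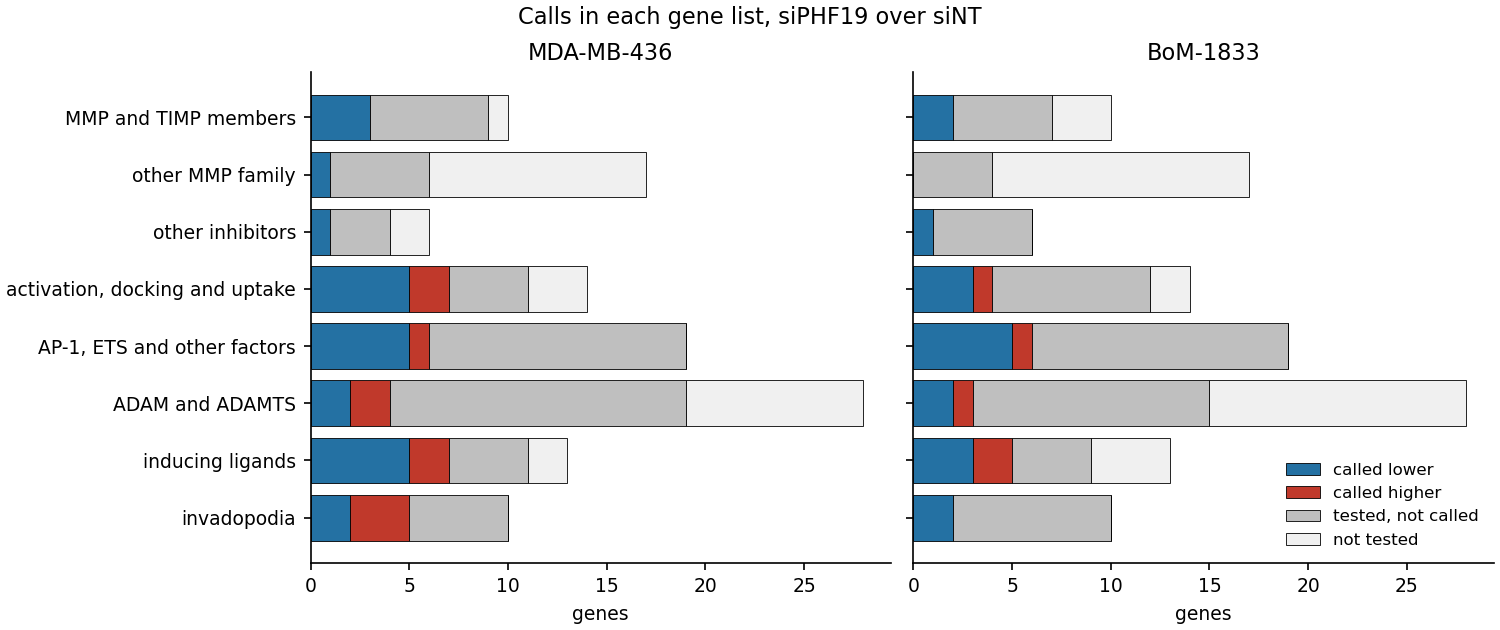
Number of genes called lower, called higher, tested without a call and not tested in each list, for siPHF19 over siNT in MDA-MB-436 (left) and BoM-1833 (right). Of the members, 3 of 10 and 2 of 10 are called lower and none higher, and the transcription factor list has 5 lower and 1 higher in each line.

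The genes most like MMP1 in their pattern were AMMECR1 (r = 0.976), CDH4 (0.965), PIP5K1C (0.963), CLMP (0.960) and EEF2 (0.957). Pearson's r was taken over the 12 libraries on log2 normalized counts less the siNT mean of the same line, among 9836 genes with a mean of at least 100 in both lines. The libraries share the contrast of the study, so r is a description of how alike these genes fell. By the authors' deposited table these 5 genes fell by 0.32 to 1.25 on the log2 scale for MDA-MB-436 and by 0.39 to 1.18 for BoM-1833.

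The 6-base sequence AAACTG, noticed in an earlier look at these data, was counted in the 3′ UTRs of the members. It was present in 67.0% of 358 genes called lower in both lines, in 34.5% of 296 called higher in both and in 40.6% of 7747 called in neither, with median 3′ UTR lengths of 1501, 1511 and 987 bases. Of the genes called lower in at least 1 line, MMP1, MMP2, MMP14, MMP17 and TIMP4 hold 0 copies and MMP9 holds 1. Of those called in neither line, MMP3, MMP15 and TIMP1 hold 0 copies and TIMP2 and TIMP3 hold 1 each. MMP13 was not matched. The sequences of the siRNAs are not given in the sources used here, and the part of this sequence in any change was not tested.

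Markers of other cell types and states moved with the treatment beside these results. Among the 4 luminal epithelial markers 2, the keratin genes KRT8 and KRT18, were called higher in each line, and the summed normalized count of the list ranged over 5814 to 6413 in siNT and 7648 to 7880.0 in siPHF19 of MDA-MB-436, and over 16057 to 17595 and 24670.1 to 25874 in BoM-1833. EPCAM, the other tested marker of that list, was called in neither line. The authors' deposited table gives 0.21 (adjusted p 0.551) for MDA-MB-436 and, in the other direction, -0.39 (adjusted p 0.271) for BoM-1833. CDH1, the defining epithelial cadherin, was not tested in either line. Of the 6 fibroblast markers 1, COL1A1, was called higher in each line, with sums of 91.7 to 103 against 139 to 152 and of 452 to 535 against 724 to 740.0. DCN was at 0 in all libraries, and LUM in those of MDA-MB-436. The leukocyte marker CD3E was at 0 in all libraries, and among the 4 leukocyte and macrophage markers CD14 was called lower in MDA-MB-436. The mesenchymal list had VIM lower in BoM-1833 (-0.21), and CD44 lower (-0.29) and SPARC higher (1.54) for MDA-MB-436, by the authors' deposited table. Of the 3 osteoclast markers, which include CTSK, none was called (0 at an unadjusted p under 0.05 among tested ones). The part of these shifts in the results for MMPs and TIMPs was not tested.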

How the data were processed

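Messenger RNA of 12 libraries was prepared with a stranded Illumina kit, per the labels' protocols. Per the submitters' processing notes, STAR, RSEM 1.3.1, DESeq2 1.46.0 and hg38 were used, with no roles given; the gene annotation, filters and strand setting are not given in the sources used here. The authors deposited 1 DESeq2 table per line. Its library columns are a signal that the authors deposited on a normalized scale, 1 scaling factor for each library as read from the values. Its log2 fold changes and standard errors, the Wald statistic (a score), and p-values with and without adjustment are the authors' deposited values. A gene was called at a deposited adjusted p under 0.05; a gene without one was not tested.

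Library values were whole multiples of 1 step (within 0.01), so reads were recovered. DESeq2 1.42.0 on these gave the deposited 3143 and 1411 calls. edgeR 4.0.16 (quasi-likelihood), limma 3.58.1 on log2(normalized count + 1 or 8), other scaling and filters, a replicate block and fits without 1 library were alternatives. For the difference between lines, all alternatives were interaction tests of DESeq2 or edgeR on recovered reads, not the z test. In reads simulated with 200 genes changed 2-fold, DESeq2 found 98% and 97.5% of them with the depths of MDA-MB-436 and BoM-1833. The z test, on a simulated pair at the depths of either line, found 91.5% and 89.5%. Changed genes were drawn only from mean counts above those of MMP1, MMP3, MMP9 and MMP14 in MDA-MB-436 and MMP3 in BoM-1833. The shares found do not cover such low counts, nor changes smaller than 2-fold such as that of MMP14 in BoM-1833. Simulated spread followed a trend on mean count, without the own spread of each gene or a control library that stands apart. The simulated pair had equal gene levels on both sides, whereas levels of several members differ widely between the lines. The z test divides the difference of the deposited log2 fold changes by its standard error, from both lines' errors added in quadrature, with Benjamini-Hochberg adjustment over 12290 genes. RPKM used recovered reads and merged exons of GENCODE 29, the source of gene positions; reads carry no molecular identifiers. 95% intervals are normal ones from the standard errors.

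The members and lists were chosen with earlier results of these data known. Named are all members, PHF19, list genes called in both lines in 1 direction, the 2 called genes of each list with the largest Wald statistic per line, and the 5 genes most like MMP1. WTAPP1, the chromosome 11 cluster, MMP11, MMP16, MMP19, IL6, EGF, AREG, EREG, CD44 and the markers fall outside this rule and were named after their values were seen. 28 gene names per table had become dates and are not named.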

Additional observations from a re-analysis of the deposited data

Results flagged for a closer look

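No group has more than 3 libraries, so single libraries were not tested as outliers. For 10 genes of the wider lists the response differed between lines by the z test over 12290 genes; values are the log2 fold change of BoM-1833 minus that of MDA-MB-436. In SPOCK1 the difference was -0.59 (adjusted p 0.0144), as the gene was called lower in BoM-1833 only. ELK3 fell in both lines, and its difference was 1.32 (adjusted p 3.04e-25). IL1A also fell in both and differed by -1.15 (adjusted p 0.0481). IL11, lower in MDA-MB-436, differed by 1.39 (adjusted p 1.24e-14). HBEGF, lower in BoM-1833, differed by -0.72 (adjusted p 3.45e-05). For TGFB1, higher in BoM-1833, the difference was 0.48 (adjusted p 0.00118). FSCN1 fell in both lines with a difference of 0.91 (adjusted p 6.70e-19). SH3PXD2A, higher in MDA-MB-436, differed by -1.02 (adjusted p 1.08e-09). CD44, a cell-surface docking receptor for MMP9 that was called lower in MDA-MB-436 only, differed by 0.29 (adjusted p 0.0123), and EREG, a growth factor also called lower there only, by 0.56 (adjusted p 0.00601). No member of the MMP and TIMP group was among them.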

How the results depend on the processing

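Of 211 alternative values for members tested within a line, 200 kept direction and call, and of 101 for tested differences between lines 94 did. For the other named genes it was 610 of 642. Alternatives that gave a tested gene no adjusted p are left out of these counts. They include MMP9, a called member of MDA-MB-436, in every fit without 1 library, in DESeq2 with the replicate block and in limma. Untested members gave 36 and 44 further values, with 2 and 1 changes of sign. Of the 3 members called in MDA-MB-436, MMP2 was called in all alternatives, and the count was 1 in the DESeq2 fit with the replicate block and also 1 in each fit without 1 library. In those fits MMP9 had no adjusted p, so fewer members were tested, and for MMP1 (adjusted p 0.202 with the block) the cause was not tested. In BoM-1833 the count was 2 to 3 in fits without 1 library and 2 in all other alternatives. By the DESeq2 interaction, the count of members that differed between lines was 0 to 1 in fits without 1 library, namely TIMP3 (-0.48) and MMP15 (0.76). Signs reversed in fits without 1 library, which gave -0.345 to 0.0195 for MMP3 in MDA-MB-436, -0.0835 to 0.0640 for HBEGF there and -0.0799 to 0.0474 for TIMP1 in BoM-1833. For the difference between lines they gave -0.225 to 0.136 for MMP1, -0.0069 to 0.138 for TIMP1 and -0.0642 to 0.0037 for TIMP2. Among untested values, MMP9 (-1.41 to 0.113) and MMP13 (-1.61 to 0.152) in BoM-1833 and the difference of MMP2 (-1.27 to 0.176) also crossed 0. The cause was not tested.

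Whether replicate numbers pair the libraries is not given by the labels, and with 3 libraries in a group the correlations below cannot exclude it. Deviations of libraries with the same number correlated at -0.0817, -0.0807 and -0.124 in MDA-MB-436 and at -0.165, -0.0740 and -0.134 in BoM-1833. No library correlated best with its own number, and for each control library the value with its own number was the lowest. With the replicate block in DESeq2 the members called were 1 for MDA-MB-436 and 2 for BoM-1833 and those that differed between lines 0, and edgeR with the block, added after the data had been seen, called 3 and 2. Over all genes the block gave 1610 and 610 calls in DESeq2, against 3143 and 1411 without it. In edgeR it gave 2352 and 876, against 3422 and 1527. Between lines the DESeq2 interaction called 299 genes with the block and 901 without it, where the z test called 601. Fits without 1 library called 1767 to 3801 genes in MDA-MB-436, 746 to 2046 in BoM-1833 and, by the DESeq2 interaction, 573 to 1474 between lines. Depth limits MMP1, MMP3, MMP9, MMP13 and MMP14 in MDA-MB-436 and MMP2, MMP3, MMP9 and MMP13 in BoM-1833, whose mean counts are low.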
